A study of Mus musculus with 24 samples.

Results

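The cytosolic ribosomal protein genes were read as a candidate set of reference promoters in wildtype (WT) and AhR-KO macrophages with and without LPS. Members were the protein-coding genes of the mouse annotation GENCODE vM21 named Rpl or Rps with a number, together with Rplp0, Rplp1, Rplp2 and Rpsa. Genes named Rps6k (kinases) and Mrpl or Mrps (mitochondrial ribosome) were left out, as were 8 further symbols, such as Rps19bp1 and Rpl9-ps1. Of 21951 protein-coding genes, 84 were members, 52 of the large subunit and 32 of the small one. For 80 of them at least 1 consensus peak reached within 1000 bases of the 5′ end of the gene, its transcription start site (TSS), and the peak with the highest mean count stood for the gene. These 80 peaks were distinct, and all passed the filter on low counts. The members without such a peak were Rpl10l, Rpl17, Rpl3l and Rps2.

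Chromatin accessibility was measured by ATAC-seq, where a transposase inserts adapters into exposed DNA, in 24 libraries of bone marrow-derived macrophages (BMDMs). The 4 groups of 6 libraries were called WT unstimulated and AhR-KO unstimulated, without LPS, and WT LPS and AhR-KO LPS, with it. AhR, the aryl hydrocarbon receptor, is a transcription factor switched on by small molecules, and AhR-KO mice lack it in all cells. Lipopolysaccharide (LPS), from the outer membrane of bacteria, activates macrophages. Marrow of both genotypes was grown with 10% serum, GM-CSF at 10 ng/ml and TGF-β at 2 ng/ml, which the study used to obtain alveolar-like macrophages. Stimulation with LPS at 97 EU/ml began on day 6 and lasted 24 h, and the calcium ionophore A23187 followed at 5 µM over 10 min. The labels attach the same treatment text to every library and do not tie libraries to animals. The paper's figure legend for these data gives 6 animals per group, from a single experiment. The p-values measure the spread between these libraries, which may be technical in part. In such bulk libraries a change in the mix of cells and a change within cells cannot be told apart.

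Ribosomes of the cytosol translate nuclear messages and are built from ribosomal RNA and, for most of their proteins, a single copy of each. The genes of these proteins are scattered over the genome and strongly transcribed in growing cells, and many begin at a run of pyrimidines, the TOP tract, through which mTOR signalling controls translation of their messages. Some of them, such as Rplp0, Rpl13a and Rps18, serve as reference genes in quantitative PCR.

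Promoter stretches are shown for the members over whose TSS accessibility differed most between the groups (Rps26, Rps21, Rpl41 and Rplp2), for the one that differed least (Rpl39) and for 3 reference genes. They come from RefSeq (build GRCm38.p6), whose start can differ from that of GENCODE, and run 5′ to 3′ on the strand of the gene from 60 bases before the start to base 15 from it. Capitals mark a tract of C followed by at least 4 of C or T that begins within 5 bases of the start, and the ETS factor core CCGGAAG on either strand.
Rps26 (chr10:128626492-128626566, minus strand): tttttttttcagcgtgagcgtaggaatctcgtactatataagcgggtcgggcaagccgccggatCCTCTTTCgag
Rps21 (chr2:180257319-180257393, plus strand): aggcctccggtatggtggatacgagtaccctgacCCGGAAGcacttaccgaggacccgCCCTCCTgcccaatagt
Rpl41 (chr10:128549154-128549228, minus strand): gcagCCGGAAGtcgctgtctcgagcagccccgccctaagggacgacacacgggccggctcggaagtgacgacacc
Rplp2 (chr7:141447591-141447665, plus strand): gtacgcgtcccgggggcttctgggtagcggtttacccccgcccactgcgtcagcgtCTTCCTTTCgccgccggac
Rpl39 (chrX:37085208-37085282, minus strand): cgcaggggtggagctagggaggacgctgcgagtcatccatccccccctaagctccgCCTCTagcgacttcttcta
Rpl13a (chr7:45128731-45128805, minus strand): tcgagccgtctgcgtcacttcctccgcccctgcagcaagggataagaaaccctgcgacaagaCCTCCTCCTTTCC
Rps18 (chr17:33955651-33955725, minus strand): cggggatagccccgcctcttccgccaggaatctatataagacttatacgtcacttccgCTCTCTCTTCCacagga
Rplp0 (chr5:115559407-115559481, plus strand): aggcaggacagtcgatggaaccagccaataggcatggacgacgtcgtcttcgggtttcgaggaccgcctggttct
The tract is seen both in members that differed between groups, such as Rps26, and in Rpl39, while Rpl41 and Rplp0 lack it in this window. All 8 starts lie inside the consensus peak of the gene.

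RefSeq promoters of 300 bases were matched for 64 members and compared with all 16522 promoters. The tract was found in 43.8% of members and 18.9% of all promoters. The core CCGGAAG was found in 39.1% of members and 12.3% of all promoters, and AAGATGG, the core of the YY1 site, in 14.1% of members and 6.43% of all promoters. GGGCGG, bound by SP and KLF factors, was found in 60.9% of members and 48.2% of all promoters, and GCGTG, the core bound by AhR, in 56.2% of members and 39.6% of all promoters. TATAAA was found in 9.38% of members and 8.63% of all promoters. The tract and TATAAA were read on the strand of the gene and the other motifs on both strands. Median GC content was 57.5% in members and 57% in all promoters, and the median number of CpG pairs was 21 against 14. These matches describe the sequence, and binding was not measured.

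The libraries held 8536838 to 34598345 counts in 184158 consensus peaks, of which 174193 were tested. Member peaks took 0.191% to 0.234% of the counts of a library. TMM factors, which correct for composition, lay between 0.976 and 1.04, and RLE factors between 0.955 and 1.06. All 10 macrophage markers, such as Spi1, Csf1r and Adgre1, had a tested promoter peak, while Cd3e, Cd3d and Lck (T cells), Cd79a and Pax5 (B cells) and Elane, Mpo and Ly6g (neutrophils) had none.

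Accessibility is given as CPM, the count of a peak scaled to a common library size after TMM correction. Of the member peaks 78 had been called by the peak caller in all 24 libraries, and 76 covered the TSS. The lowest mean levels were those of Rpl39l at 0.548, Rps14 at 0.734 and Rpl3 at 5.44 CPM, and the highest those of Rpl15 at 72.4, Rpl7 at 70.2 and Rps21 at 59.7 CPM. Rpl39l and Rps14 were the exceptions among the peak calls, with a call in 5 libraries and 1 library. Their peaks of 262 and 212 bases lay beside the TSS, as did those of Rpl3 and Rps10.

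Whether the 4 groups differed was tested with edgeR's quasi-likelihood F test, with Benjamini-Hochberg adjustment over all tested peaks and an adjusted p of at most 0.05 as the call. Under TMM scaling 57 of 80 member peaks passed, against 86% of all tested peaks and 82.2% of the 13042 promoter peaks of other genes. RLE scaling gave 61 against 85.8% of all peaks, and total-count scaling 59 against 86.1%. In all, 54 members passed under each of the 3 scalings, 12 under some and 14 under none. The last included Rpl31, Rpl12, Rpl5, Rps13, Rplp1, Rpsa, Rps29, Rpl36al, Rps24, Rpl8, Rpl35a and Rpl39. Most members therefore differed between groups whichever of these scalings was used.

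The differences were small. The highest minus the lowest of the 4 group means had a median of 0.28 on the log2 CPM scale over the members, a factor of 1.22, with quartiles of 0.16 and 0.41. The median was 0.38 for the promoter peaks of other genes and 1.003 for all tested peaks. This range stayed under a factor of 1.5 in 75 members (93.8%), in 70.2% of other promoters and in 27.2% of all peaks. Under RLE scaling the median of the members was 0.31 and 72 members stayed under that factor, and under total-count scaling the values were 0.28 and 75. The median SD between libraries of a group was 0.12 log2 for members and 0.13 for other promoters.

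**Figure D1:**
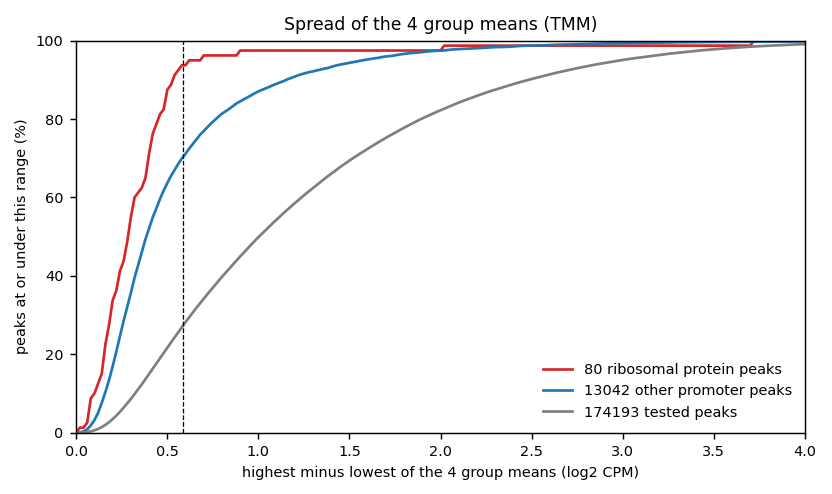
Cumulative share of peaks (vertical axis, percent) by the difference between the highest and lowest of the 4 group means (horizontal axis, log2 CPM) for member peaks, promoter peaks of other genes and all tested peaks, with the 1.5-fold mark dashed. At the mark the curves stand at 93.8%, 70.2% and 27.2%.

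The smallest F belonged to Rpl39, a large subunit protein encoded on the X chromosome (peak chrX:37084131-37085989, build mm10). Its CPM was 20.05 ± 1.33, 20.1 ± 1.27, 20.1 ± 1.47 and 19.97 ± 0.344 in unstimulated WT and AhR-KO and LPS-treated WT and AhR-KO libraries (mean ± SD, n = 6 each). Single libraries lay between 17.8 and 22.7 CPM, and the groups overlapped in each contrast. By edgeR its adjusted p was 0.998 under TMM, 0.698 under RLE and 0.949 under total-count scaling, and the 95% intervals of its fold changes in the 4 two-group contrasts lay between -0.13 and 0.13 log2. Other members with a small F were Rps24, Rpl8 and Rpl36al, whose group means spanned 0.05, 0.06 and 0.07 log2. Rpl36al is a retained copy of Rpl36a, and the others are core proteins of their subunits.

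Rps26, a small subunit protein, had the largest F among members whose peak covered the TSS (peak chr10:128626001-128627299). Its lowest, median and highest CPM were 18.9, 19.1 and 20.9 in WT unstimulated and 22.7, 25.3 and 28.5 in AhR-KO unstimulated libraries. With LPS they were 16.3, 16.9 and 18.3 in WT libraries, against 13.9, 15.6 and 18.5 in AhR-KO ones. Each AhR-KO unstimulated library lay above every library of the other groups, while WT LPS and AhR-KO LPS overlapped.

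Rps21, also of the small subunit (peak chr2:180256431-180257821), stood at 63.3 ± 2.15, 71.7 ± 4.68, 48.6 ± 3.34 and 55.3 ± 4.36 CPM in unstimulated WT and AhR-KO and LPS-treated WT and AhR-KO libraries (mean ± SD, n = 6 each). Rpl41, the shortest ribosomal protein, stood at 57.7 ± 1.95, 73.8 ± 8.69, 47.9 ± 3.46 and 52.5 ± 5.601 CPM in the same order. Rplp2, an acidic protein of the ribosomal stalk, stood at 28.7 ± 3.14, 35.2 ± 3.42, 24.2 ± 1.08 and 24.8 ± 1.81 CPM. In each of these 3 genes the AhR-KO unstimulated mean was the highest, and the WT LPS mean was the lowest.

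**Figure D2:**
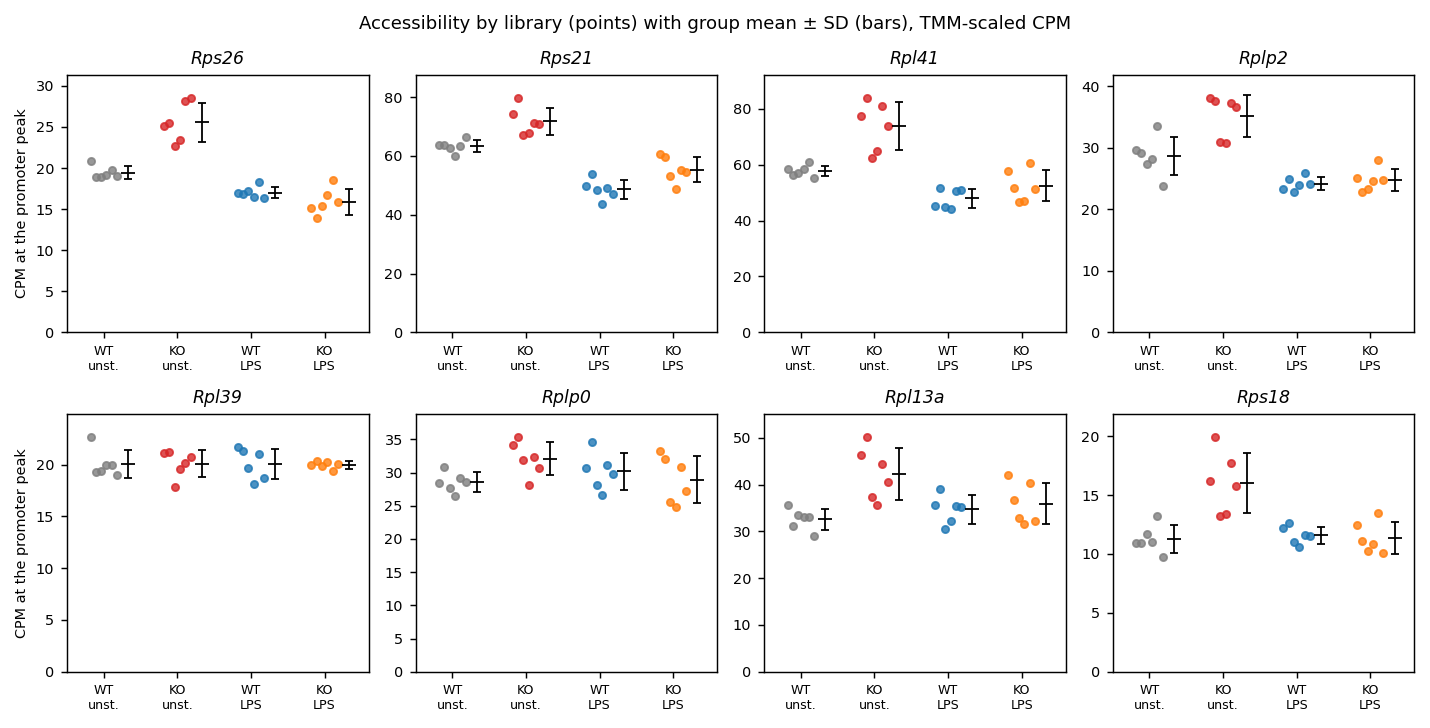
CPM at the promoter peak (vertical axis) of 8 members in the 24 libraries (points, by group), with group mean ± SD (n = 6). In Rps26 the AhR-KO unstimulated libraries lie at 22.7 to 28.5 CPM, above all others, while in Rpl39 the groups overlap between 17.8 and 22.7 CPM.

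The first contrast asked what loss of AhR changed without LPS. In AhR-KO unstimulated against WT unstimulated, 28 member peaks rose and 7 fell under TMM, against 18.9% and 21.2% of all tested peaks and 21.7% and 25.1% of other promoters. RLE scaling gave 39 higher and 6 lower, against 22.5% and 17.9%, total-count scaling 29 and 9, against 18.4% and 21.7%, and loess scaling 26 and 14. Shares of all tested peaks called under loess scaling are not given, here or in later contrasts. The median log2 fold change was 0.12 for members, -0.01 for other promoters and -0.02 for all peaks under TMM, and for members 0.19, 0.12 and 0.09 under RLE, total-count and loess scaling. In the same order other promoters stood at 0.05, -0.02 and -0.03 and all peaks at 0.04, -0.03 and 0.04. Of the 10 macrophage markers 6 rose and 0 fell in the same contrast, with their summed level at 206 to 231 CPM in WT and 243 to 322 CPM in AhR-KO, and their part in the result was not tested. In all, 28 members were called higher and 6 lower under TMM, RLE and total-count scaling alike.

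Members that rose most were Rps18 (0.52 ± 0.09 SE, adjusted p = 1.98e-05), Rpl10a (0.48 ± 0.08 SE, adjusted p = 5.09e-06) and Rps10 (0.45 ± 0.09 SE, adjusted p = 7.50e-05), by edgeR's quasi-likelihood test. Rps18 and Rps10 belong to the small subunit and Rpl10a to the large one. In Rpl10a and Rps10 each AhR-KO library lay above each WT library. In Rps18 the groups overlapped, at 9.71 to 13.3 CPM in WT and 13.2 to 19.9 CPM in AhR-KO. The peaks of Rps18 and Rps10 also hold the TSS of another gene, and that of Rps10 lies beside its own TSS. Their rise therefore cannot be assigned to these genes alone.

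Apart from Rps14, whose small peak is described further on, the members that fell most were Rpl37 and Rpl22l1. Rpl37, a large subunit protein, went from 71.3 ± 6.15 CPM in WT to 54.4 ± 2.25 in AhR-KO (log2 fold change -0.39 ± 0.06 SE, adjusted p = 5.37e-06, edgeR). Rpl22l1, a paralog of Rpl22, went from 54.5 ± 3.82 to 42.1 ± 1.89 CPM (-0.37 ± 0.07 SE, adjusted p = 1.57e-05, edgeR). In both genes the groups did not overlap. This was so for 19 members, against 21% of all tested peaks.

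Differentially accessible regions (DARs) were the peaks called at the same adjusted p that also changed by 1.5-fold or more. Rps14 was the only member DAR of this contrast, against 22.6% of all tested peaks and 6.99% of other promoters. For 74 members the 95% interval of the change lay wholly inside 1.5-fold, against 36.3% and 79.2%. The title numbers of the libraries fall into 3 consecutive sets of 8 with 2 libraries of each group, which the labels do not explain. Within these sets the median over members was 0.10, 0.03 and 0.26, and over other promoters 0.004, -0.06 and 0.02.

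With LPS the same genotype contrast gave few calls at the members. In AhR-KO LPS against WT LPS, 4 member peaks rose and 4 fell under TMM, against 23.3% and 21.3% of all tested peaks and 10.6% and 22.4% of other promoters. RLE scaling gave 4 and 4, against 24.3% and 20.5%, and total-count scaling 3 and 6, against 21.7% and 22.9%. The median of the members was -0.01 under TMM, 0.004 under RLE and -0.03 under total-count scaling. Under TMM, Rps21, Rpl35, Rps3a1 and Rps14 rose and Rpl37, Rpl22l1, Rpl7 and Rpl39l fell, with Rps3a1 named here after its values were seen.

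Rpl37 stood at 62.7 ± 7.77 CPM in LPS-treated WT and 49.4 ± 2.82 in LPS-treated AhR-KO cells (-0.34 ± 0.06 SE, adjusted p = 2.82e-05, edgeR), without overlap, so it was lower in AhR-KO in both conditions. Rps21 was higher in AhR-KO with LPS by 0.19 log2 (adjusted p = 0.00485, edgeR). Rpl22l1 fell by 0.17 (adjusted p = 0.0292, edgeR), a call lost without WT LPS replicates 1 or 2 or AhR-KO LPS replicates 4, 5 or 6 (adjusted p = 0.0606 to 0.108, edgeR). The call of Rps3a1 was lost without WT LPS replicates 1, 3 or 6 or AhR-KO LPS replicates 1 or 2 and that of Rpl7 without WT LPS replicate 1. Rpl35, a large subunit protein, rose by 0.14 (adjusted p = 0.0139, edgeR). Rpl39l and Rps14 were the 2 member DARs, against 26.5% of all peaks. The interval lay inside 1.5-fold in 78 members, against 41.7%, and the groups did not overlap in 3, against 19.6%. Within the sets of title numbers the median was -0.04, 0.03 and -0.01, and over other promoters -0.06, -0.01 and -0.04.

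The effect of LPS was asked first in WT cells, where 21 member peaks fell and 4 rose under TMM but loess scaling, which bends with mean accessibility, turned this to 9 lower and 16 higher. The TMM counts stand against 32.1% and 31.8% of all tested peaks and 32.9% and 15.1% of other promoters. RLE scaling gave 20 lower and 5 higher, against 31.8% and 32%, and total-count scaling 20 and 9, against 31.5% and 32.3%. The median of the members was -0.02 under TMM and 0.05 under loess scaling. Other promoters moved the same way, from -0.07 under TMM to -0.0009 under loess scaling, so this move was not particular to the members. Within the sets of title numbers the median of the members was -0.02, -0.11 and 0.05 (other promoters -0.04, -0.12 and -0.05). The member set as a whole thus had no steady direction. Macrophage markers also moved here, 6 lower and 1 higher, with a summed level of 179 to 202 CPM in WT LPS, and their part was not tested.

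Rps21 fell by 0.38 log2 with LPS in WT cells (SE 0.05, adjusted p = 1.74e-07, edgeR), with each LPS library below each unstimulated one. Rpl3, whose protein reaches the peptidyl transferase centre, went from 5.94 ± 0.328 to 4.43 ± 0.449 CPM (-0.42 ± 0.12 SE, adjusted p = 0.002, edgeR), also without overlap, at a peak beside its TSS. At the Rpl3 peak near the start of another transcript the change was -0.00171 (adjusted p = 0.988, edgeR), so the fall was not seen there. Rps9, a small subunit protein, fell by 0.29 (SE 0.10, adjusted p = 0.0143, edgeR), with overlapping groups. Rpl24, a large subunit protein, rose from 22.9 ± 1.22 to 28.1 ± 2.24 CPM (0.30 ± 0.07 SE, adjusted p = 0.000148, edgeR) without overlap. Rpl39l was the only member DAR, against 47% of all peaks. The interval lay inside 1.5-fold in 77 members, against 28.2%, and the groups did not overlap in 12, against 38.7%.

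In AhR-KO cells LPS lowered more members than it raised under TMM, RLE, total-count and loess scaling. In AhR-KO LPS against AhR-KO unstimulated, 43 member peaks fell and 8 rose under TMM, against 31.1% and 35.1% of all tested peaks and 41.4% and 19.8% of other promoters. RLE scaling gave 49 and 8, against 32.9% and 33.4%, total-count scaling 46 and 8, against 31.3% and 35%, and loess scaling 28 and 15. The median was -0.17 for members, -0.11 for other promoters and 0.05 for all peaks under TMM, and for members -0.21, -0.17 and -0.06 under RLE, total-count and loess scaling. Under these 3 scalings, in the same order, other promoters stood at -0.15, -0.11 and -0.02 and all peaks at 0.005, 0.04 and -0.02. The members thus lay closer to all peaks under loess scaling than under TMM. Within the sets of title numbers it was -0.19, -0.11 and -0.22, and over other promoters -0.13, -0.07 and -0.13. The AhR-KO unstimulated libraries also entered the first contrast, so the fall here and the rise there are not independent. Of the 10 macrophage markers 7 fell in the same contrast, with their summed level at 243 to 322 CPM before and 167 to 239 CPM with LPS, and their part in the result was not tested.

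Rps26 fell by 0.69 log2 (SE 0.07, 95% interval -0.82 to -0.55, adjusted p = 1.71e-11, edgeR). It was the only DAR among the 76 members whose peak covered the TSS, in any of the 5 contrasts, and under loess scaling its change of -0.57 was short of 1.5-fold. Rpl3 fell by 0.89 (SE 0.11, adjusted p = 1.47e-08, edgeR) and Rplp2 by 0.51 (SE 0.07, adjusted p = 2.88e-08, edgeR), both without overlap of the groups. The Rpl3 peak lies beside its TSS and also holds the TSS of another gene. At the Rpl3 peak near the start of another transcript the change was -0.51, short of 1.5-fold. Apart from Rps14 and Rpl39l, the member that rose most was Rpl37a, a large subunit protein (0.36 ± 0.06 SE, adjusted p = 1.09e-06, edgeR). Member DARs were 4, namely Rpl3, Rps26, Rpl39l and Rps14, against 48.8% of all peaks. The interval lay inside 1.5-fold in 65 members, against 24.7%, and the groups did not overlap in 24, against 45.6%. In all 4 two-group contrasts at once the interval lay inside 1.5-fold in 64 members, against 12.8% of all peaks and 58.8% of other promoters.

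**Figure D3:**
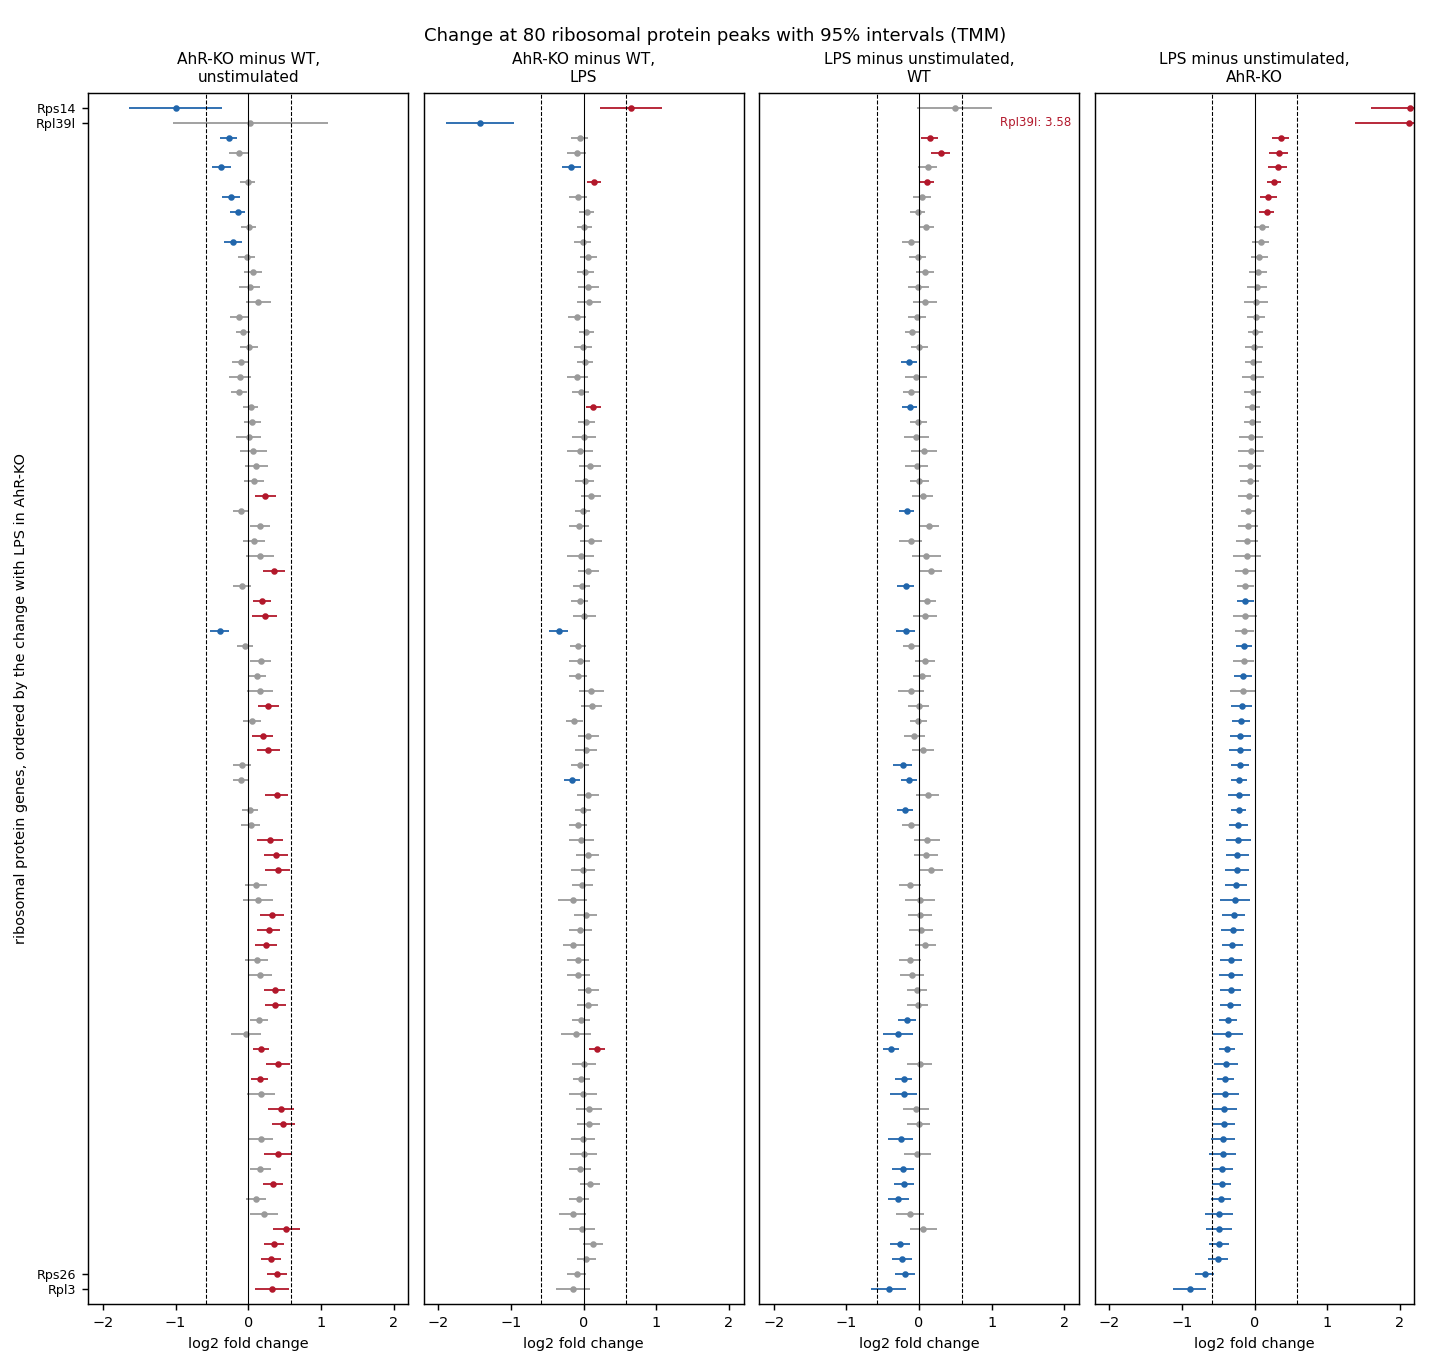
Log2 fold change (horizontal axis) with its 95% interval for each of the 80 member peaks in the 4 two-group contrasts, in red where called higher, blue where called lower and grey otherwise, with the 1.5-fold marks dashed and the DARs of LPS in AhR-KO labelled by gene. There are 28 red and 7 blue peaks for AhR-KO against WT without LPS, and 43 blue and 8 red for LPS in AhR-KO.

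The interaction asked whether the genotype effect differed with LPS. Under TMM it was called negative in 15 members and positive in 1, against 7.35% and 7.99% of all tested peaks and 11.9% and 8.35% of other promoters. RLE scaling gave 24 and 1, against 9.06% and 6.52%, and total-count scaling 21 and 1, against 8.07% and 7.46%. The median was -0.15 for members, -0.05 for other promoters and 0.04 for all peaks. Rps26 (-0.50 ± 0.09 SE, adjusted p = 0.000397) and Rps18 (-0.55 ± 0.13 SE, adjusted p = 0.00329) were among the negative calls by edgeR, and Rps14 was the positive one and the only DAR, against 10.4% of all peaks. The interval lay inside 1.5-fold in 68 members, against 28.4%. Within the sets of title numbers the median was -0.17, 0.01 and -0.26, and over other promoters -0.08, 0.04 and -0.09, so neither was negative in the second set. Leaving out 1 library at a time lowered the negative calls to 7 without AhR-KO unstimulated replicate 2 or AhR-KO LPS replicate 6, to 8 without AhR-KO unstimulated replicate 5, WT LPS replicate 5 or AhR-KO LPS replicate 2, and to 9 without WT unstimulated replicate 4 or AhR-KO unstimulated replicate 1.

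Seen library by library, the whole set shifted by little. The median over members of the deviation from the mean of each peak lay between -0.08 and 0.08 log2 in WT unstimulated and between -0.01 and 0.19 in AhR-KO unstimulated libraries. With LPS the bounds were -0.15 and 0.06 for WT libraries, against -0.13 and 0.05 for AhR-KO ones. The AhR-KO unstimulated libraries reached highest, and all groups overlapped. Member peaks took 0.214 ± 0.00557% of counts in WT without LPS, 0.223 ± 0.00857% in AhR-KO without LPS, 0.207 ± 0.008495% in WT with LPS and 0.201 ± 0.00807% in AhR-KO with LPS (mean ± SD, n = 6 each).

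**Figure D4:**
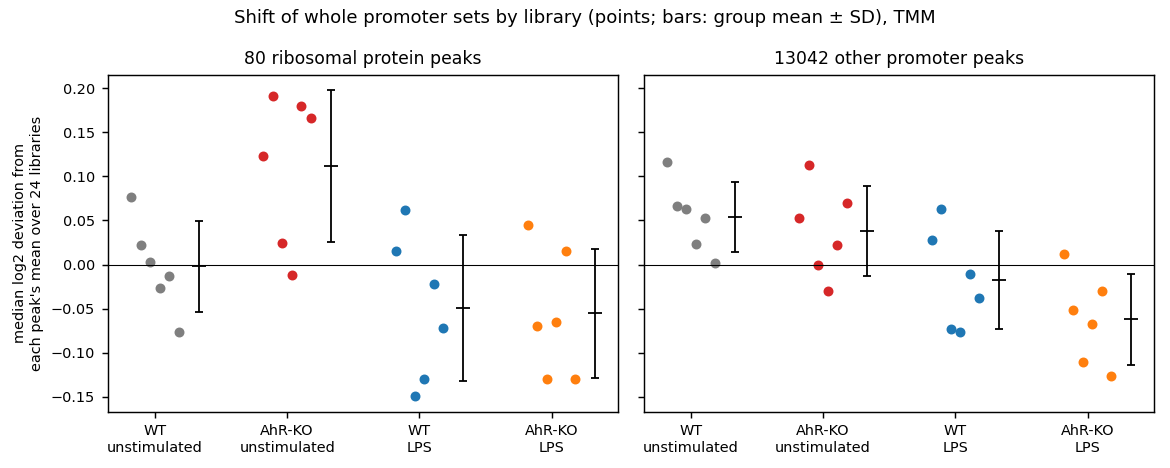
Median log2 deviation (vertical axis) of the 80 member peaks and of the 13042 promoter peaks of other genes from the mean of each peak over all libraries, by library (points) with group mean ± SD (n = 6). The members reach 0.19 in AhR-KO unstimulated libraries, and the groups overlap.

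The reference genes among the members did not behave alike. Rplp0, which anchors the ribosomal stalk, stood at 28.5 ± 1.51, 32.1 ± 2.55, 30.2 ± 2.73 and 28.96 ± 3.55 CPM in unstimulated WT and AhR-KO and LPS-treated WT and AhR-KO libraries (mean ± SD, n = 6 each), with the groups overlapping. Its adjusted p in the 4-group test of edgeR was 0.104 under TMM, 0.0172 under RLE and 0.062 under total-count scaling, so its call turned on the scaling. Rpl13a, a large subunit protein, stood at 32.6 ± 2.28, 42.4 ± 5.57, 34.7 ± 3.01 and 35.96 ± 4.47 CPM in the same order and passed under all 3 scalings (adjusted p = 0.000365, 3.84e-05 and 0.000157, edgeR). Rps18 stood at 11.2 ± 1.17, 16.04 ± 2.57, 11.6 ± 0.738 and 11.4 ± 1.34 CPM, so the AhR-KO unstimulated mean was above the other three, which lay close together. Rplp1, the partner of Rplp2 in the stalk (adjusted p = 0.277), and Rpsa, a small subunit protein also known as laminin receptor (adjusted p = 0.0738), did not pass under TMM by edgeR.

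For comparison, 8 of 12 promoters of other genes commonly used as references passed the 4-group test, against 86% of all tested peaks and 82.2% of promoters outside the members, with a median range of 0.31 log2. Actb, a cytoskeletal actin, stood at 37.8 ± 2.75, 43.3 ± 10.1, 35.1 ± 3.64 and 34.4 ± 4.65 CPM in the same order. Gapdh, a glycolytic enzyme, stood at 70.1 ± 3.91, 88.8 ± 12.7, 74.3 ± 5.72 and 94.1 ± 7.89 CPM and was higher in AhR-KO both without LPS (0.34 ± 0.07 SE, adjusted p = 0.000184) and with it (0.34 ± 0.07 SE, adjusted p = 0.000127), by edgeR.

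Of the 7 paralogs whose symbol ends in l or l with a number, Rpl10l and Rpl3l had no consensus peak within 1000 bases of the TSS. Rpl7l1 and Rps27l rose in AhR-KO without LPS by 0.28 (adjusted p = 0.00566) and 0.19 log2 (adjusted p = 0.0104, edgeR), and Rpl36al passed in none of the 5 contrasts. Rpl39l, a copy of Rpl39, had 0 to 5 counts without LPS in WT, 1 to 6 without LPS in AhR-KO, 27 to 55 with LPS in WT and 8 to 19 with LPS in AhR-KO. Both LPS groups lay above both unstimulated groups, and they did not overlap each other. Its log2 change with LPS was 3.58 in WT (95% interval 2.92 to 4.25) and 2.13 in AhR-KO (1.39 to 2.86), values that depend on the few unstimulated counts. With LPS it was lower in AhR-KO (-1.43 ± 0.23 SE, adjusted p = 3.60e-06, edgeR). The peak (chr16:10171222-10171483) lay downstream of the TSS at position 10170226, so the TSS itself was not measured.

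Rps14, a small subunit protein, was likewise read at a peak beside its TSS (chr18:60746603-60746814), with 6 to 16 counts without LPS in WT, 4 to 10 without LPS in AhR-KO, 20 to 30 with LPS in WT and 23 to 58 with LPS in AhR-KO. Its log2 change was -1.001 in AhR-KO without LPS and 2.14 with LPS in AhR-KO (adjusted p = 0.00993 and 6.33e-09, edgeR). In AhR-KO LPS against WT LPS it was 0.65 (adjusted p = 0.0114, edgeR) but 0.40, no longer a call, without AhR-KO LPS replicate 4. When the TSS of any protein-coding transcript was allowed, Rps14 was read at a peak of 32.1 CPM on average, where the first of these changes was 0.05 and the second -0.21. The same choice gave Rps2 and Rpl17 a peak, at 16.3 and 19.1 CPM, and moved Rpl3 and Rps24 to peaks of 14.02 and 23.3 CPM. There Rpl3 changed by -0.51 with LPS in AhR-KO, under 1.5-fold, and Rps2 by -0.42 (adjusted p = 4.20e-05, edgeR).

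Both subunits gave similar counts, and the difference between them was not tested. Over all tested peaks 86% passed the 4-group test, 18.9% rose and 21.2% fell in AhR-KO without LPS, and 31.1% fell with LPS in AhR-KO. Without LPS 17 of 49 large subunit peaks rose in AhR-KO and 5 fell, with a median of 0.15, and 11 of 31 small subunit peaks rose and 2 fell, with a median of 0.11. With LPS in AhR-KO 25 large and 18 small subunit peaks fell, with medians of -0.19 and -0.16. The peaks of 19 members held the TSS of another protein-coding gene, so their counts cannot be assigned to 1 promoter. These were Rpl7, Rpl7a, Rpl12, Rpl35, Rps27, Rpl9, Rpl18, Rps25, Rpl4, Rpl41, Rps27a, Rpl36al, Rpl15, Rps24, Rpl3, Rpl35a, Rps10, Rps28 and Rps18. Of them 13 passed the 4-group test, and 44 of the 61 others. Peaks of members that hold snoRNA genes within the gene passed in 19 of 28 cases and the rest in 38 of 52. With the pyrimidine tract 22 of 27 passed and without it 25 of 34. With GCGTG 23 of 34 passed and without it 24 of 27, and none of these subgroups was tested against its complement.

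Other genes of the translation machinery were read at their promoters in the same way, and the shares to set beside their counts are again 86% of all tested peaks passing the 4-group test and 18.9% higher and 21.2% lower in AhR-KO without LPS. Of 38 translation factor peaks 35 passed the 4-group test, with 18 higher and 6 lower in AhR-KO without LPS and medians of 0.15 there and -0.18 for LPS in AhR-KO. Of 75 mitochondrial ribosomal protein peaks 57 passed, with 24 higher and 12 lower and medians of 0.03 and -0.10. Of 40 ribosome biogenesis peaks 30 passed, with 10 higher and 6 lower and medians of 0.04 and -0.11. Fau, which encodes a small subunit protein fused to a ubiquitin-like one, and Rack1 of the small subunit both passed and both fell with LPS in AhR-KO. Among 17 regulators of mTOR and of TOP messages 12 passed, with 7 higher and 2 lower and medians of 0.12 and -0.23.

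Finally the members were used as the scale itself, by setting the factor of each library so that the median of the member peaks was level. These factors lay between 0.907 and 1.12. Relative to TMM this moved the median log2 fold change of all tested peaks by -0.11 in AhR-KO against WT without LPS, by 0.17 for LPS in AhR-KO and by 0.12 in the interaction. Such shifts follow by construction from the member medians under TMM given above, with the sign turned. They and the changed splits of DARs below are therefore no separate result about the members. In AhR-KO against WT without LPS, 22015 DARs were lower and 17332 higher under TMM (56% lower), 19366 and 20676 under RLE (48.4%), and 28134 and 12202 when scaled to the members (69.7%). For LPS in AhR-KO 44.1% of DARs were lower under TMM and 34% when scaled to the members, and in the interaction 44% and 25.5%. AhR-KO LPS against WT LPS moved from 49.4% to 49.1% lower, and WT LPS against WT unstimulated from 46% to 43%. Scaled in the same way to the promoter peaks of other genes, the share lower was 54.2% in AhR-KO against WT without LPS, 38% for LPS in AhR-KO and 39.7% in the interaction. It was 44.7% in AhR-KO LPS against WT LPS and 41.5% in WT LPS against WT unstimulated, further from TMM than with the members as scale. Which scaling lies closest to the true level was not tested, as these libraries carry no added standard.

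**Figure D5:**
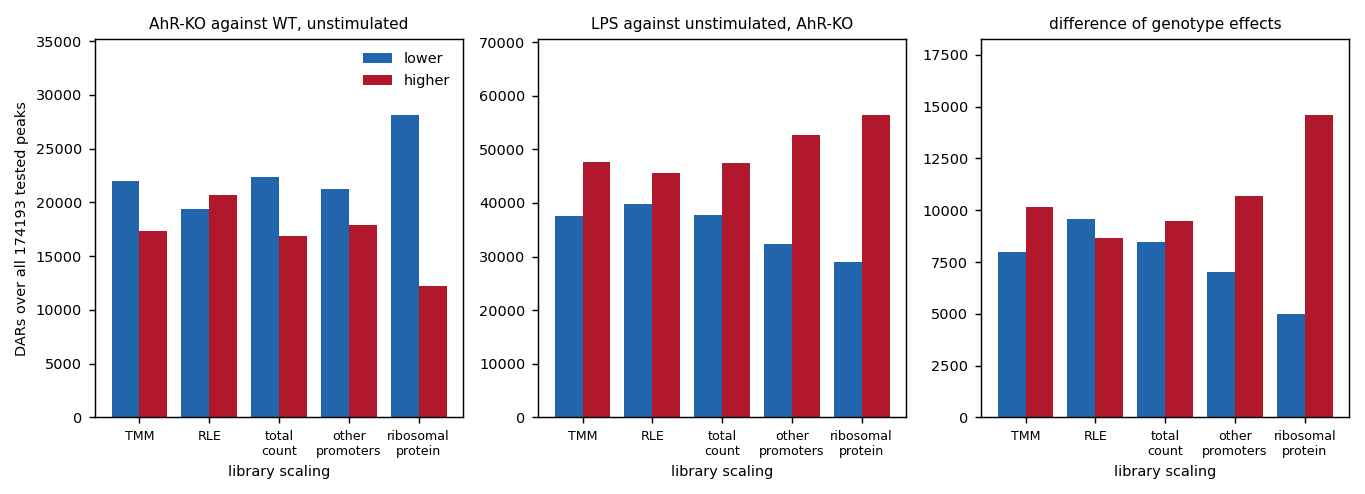
Number of DARs over all 174193 tested peaks (vertical axis) that were lower or higher under 5 library scalings (horizontal axis) in 3 contrasts. Scaled to the member peaks, 28134 are lower and 12202 higher in AhR-KO against WT without LPS.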

How the data were processed

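ATAC-seq had been run on 24 libraries of BMDMs, 6 in each of 4 groups taken from the genotype and treatment labels. The authors demultiplexed reads with bcl2fastq 2.20.0 and ran the nf-core atacseq pipeline, release 1.2.1, on mm10, with broad peaks called per library by MACS2, merged into a consensus set and counted per library with featureCounts 2.0.1. The deposited values used here are raw read counts per consensus peak, and per the file headers a read had to overlap a peak by a fraction of 0.2. The deposited peak lists give positions, a score, a fold enrichment (ratio over background) and −log10 p- and q-values by the authors' peak caller. Medians of the fold enrichment and −log10 q-value were also taken per member. The results given here use the positions alone, to count the libraries with a call.

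Counts were fitted with edgeR 4.0.16 in R 4.3.3 (quasi-likelihood, 4 groups, TMM scaling, filterByExpr), with Benjamini-Hochberg adjustment over 174193 peaks. Limma 3.58.1 supplied loess offsets and DESeq2 1.42.0 was an alternative. CPM were computed from TMM library sizes. Total counts of 8536838 to 34598345 per library set the precision, which is lowest for peaks with few counts. The scripts were tested on simulated counts. No pair of libraries of a group looked like 1 library deposited again (lowest chi-square per peak 1.23 over 60 pairs). Named members were those with the 5 largest and smallest F, the 3 highest and lowest changes per two-group contrast, every DAR, the 3 highest and lowest CPM, paralog forms, the reference genes, members without a peak and members sharing a peak. Some genes are not reported here by name. Members and lists were chosen with earlier results of these data known. Promoter sequences were taken from RefSeq tables. Alternatives were other scalings, no filter, blocks by replicate or title number, thinning, summed peaks, DESeq2, other TSS and fold rules, and leaving out each library.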

Additional observations from a re-analysis of the deposited data

Results flagged for a closer look

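Single libraries stood far from the other 5 of their group in 5 of 52 groups checked, taken from 12 members and from the share of counts in member peaks, and chance alone gives this in about 1 in 20 groups. For Rpl39, WT unstimulated replicate 1 reached 22.7 CPM, with the next library at 20. For Rpl39l, AhR-KO unstimulated replicate 3 reached 0.263 CPM, with the next at 0.118, and WT LPS replicate 5 stood at 1.06 CPM, below the next at 1.47. For Rps14, AhR-KO LPS replicate 4 reached 2.3 CPM, with the next at 1.31. For Rps24, AhR-KO unstimulated replicate 2 reached 9.14 CPM, with the next at 8.3.

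The genotype effect differed between LPS and unstimulated libraries, by the interaction term of edgeR's quasi-likelihood test, in 3 of the members that were DARs. The effect with LPS minus the effect without was -0.475 log2 for Rpl3 (adjusted p = 0.0435), 1.65 for Rps14 (adjusted p = 0.00261) and -0.495 for Rps26 (adjusted p = 0.000397). The Rpl3 call was lost in 12 of the 24 fits that each left out 1 library, with adjusted p = 0.0515 to 0.0887 by edgeR, namely without WT unstimulated replicates 1, 2, 4 or 6, AhR-KO unstimulated replicates 1, 2 or 6, WT LPS replicates 1, 4 or 5 or AhR-KO LPS replicates 2 or 6. For Rpl39l, the fourth such member, it was -1.46 (adjusted p = 0.0874) and did not pass.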

How the results depend on the processing

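Of the counts and medians of the members and of all tested peaks under alternatives other than leaving out a library, 239 stayed within 1.5 times or the replicate spread and 37 moved. The moves were as follows, and their causes were not tested beyond the construction of each alternative. Shares of all tested peaks called under DESeq2, loess scaling, thinning and the block fits are not given here. For these fits a move of the members cannot be told from a move of all peaks. RLE scaling gave 24 negative interaction calls and 2 interaction DARs among members, DESeq2 25 and 2, and total-count scaling 9 members higher with LPS in WT. Loess scaling gave 14 members lower in AhR-KO without LPS, 9 lower and 16 higher with LPS in WT (median 0.051), 28 lower with 15 higher for LPS within AhR-KO (median -0.064), and 6 positive interaction calls and 2 interaction DARs. Thinning all libraries to the lowest total gave 0 member DARs in AhR-KO without LPS, 2 lower and 1 DAR in AhR-KO with LPS, 2 higher with LPS in WT, and 6 negative calls, 0 positive calls and 0 DARs in the interaction, so these counts depend on depth. Allowing the TSS of any protein-coding transcript gave 0, 1, 2 and 0 member DARs for AhR-KO without and with LPS, LPS in AhR-KO and the interaction, and 0 positive interaction calls. There Rps14 turned to 0.0484, -0.0505, -0.207 and -0.0989 log2 in the same order, as another peak was read. Keeping only peaks over the TSS gave 0, 0, 0, 1 and 0 DARs for AhR-KO without and with LPS, LPS in WT, LPS in AhR-KO and the interaction, and 0 positive interaction calls. A fold threshold of 2 gave 1 DAR in AhR-KO with LPS and 2 for LPS in AhR-KO. Scaling to the members gave 5001 negative interaction DARs over all peaks, against 7985 under TMM. With the replicate number as a block, 62 members passed the 4-group test, 22 had a negative and 3 a positive interaction call, and with the title number as a block 4 were positive. In the block fits no other count moved by over 1.5 times. Of 36 same-numbered pairs 8 had a correlation of deviations above 0.1 (range -0.13 to 0.28). Between WT unstimulated and WT LPS 5 of 6 pairs were above 0.1 (0.04 to 0.28), and there the replicate block gave 23 members lower and 5 higher with LPS. As not every pair was above 0.1 in any 2 groups, the block was kept as an alternative. Libraries correlated best with their own number in 28 of 72 cases, against 12 if 1 of 6 were picked at random, which is a hint from the data and not from the design.

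Leaving out 1 library at a time, 53 to 59 members passed the 4-group test. Lower, higher and DAR counts ranged over 6 to 9, 24 to 34 and 1 to 1 in AhR-KO without LPS (median 0.12 to 0.15), 2 to 6, 3 to 5 and 1 to 2 with LPS (-0.03 to 0.01), 18 to 24, 2 to 9 and 1 to 1 for LPS in WT (-0.05 to 0.001), 39 to 47, 8 to 8 and 4 to 4 for LPS in AhR-KO (-0.21 to -0.15), and 7 to 20, 1 to 2 and 1 to 2 in the interaction (-0.18 to -0.13). Members higher with LPS in WT were 2 without WT LPS replicate 1, 9 without WT LPS replicate 3 and 7 without AhR-KO LPS replicate 3. Members lower in AhR-KO with LPS were 2 without WT LPS replicate 1, and the DARs there 1 without AhR-KO LPS replicate 4. Interaction DARs were 2 without WT unstimulated replicates 3 or 5, AhR-KO unstimulated replicates 3 or 4 or AhR-KO LPS replicate 5, and positive calls 2 without WT LPS replicates 1 or 2 or AhR-KO LPS replicate 3.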
